A study of Mus musculus with 32 samples.

Results

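Cells make cholesterol from acetyl-CoA through the mevalonate pathway. HMG-CoA synthase (Hmgcs1) acts early, isopentenyl diphosphate isomerase (Idi1) and farnesyl diphosphate synthase (Fdps) build the isoprenoid chain, and squalene epoxidase (Sqle), lanosterol synthase (Lss) and lanosterol 14-alpha-demethylase (Cyp51) form and trim the sterol rings. SREBP-2, the product of Srebf2, is the transcription factor that switches these genes on when sterols run low, and INSIG1 holds it in the endoplasmic reticulum when sterols are plentiful. In the gut, this pathway supplies membrane to an epithelium that is renewed continuously. The 8 genes Hmgcs1, Idi1, Fdps, Sqle, Lss, Cyp51, Srebf2 and Insig1 were described here in the mouse distal colon. All 8 were measured, among 18193 genes with a symbol, through 19 probe sets, and each gene was read from its probe set with the highest mean signal over the 32 arrays.

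Total RNA of the distal colon was hybridised to Affymetrix expression arrays. The mice were wild type (WT) of strain C57 BL6NCr, or Myd88 knockouts (KO) backcrossed to at least 98% of that background. Myd88 encodes a cytosolic adaptor of Toll-like and IL-1 family receptors. The groups were 6 untreated WT, 6 untreated KO, 10 treated WT and 10 treated KO mice, all described as biological repeats, so that p-values measure the spread between mice. Treated mice received azoxymethane (AOM, a colon carcinogen) at 10 mg/kg intraperitoneally at 6 to 8 weeks of age, and 1 week later were given 2% DSS (dextran sodium sulfate, a polymer toxic to colon epithelium) in their water for 3 days before they were killed. The age and handling of the untreated mice were not given in the sources used here, so AOM, DSS and any difference in handling cannot be told apart. The samples were whole tissue, in which fewer cells of a type and less RNA per cell cannot be told apart, and the deletion was not described as limited to a cell type.

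The upstream sequences of the members are shown as a description, and their part in the variation between mice was not tested. RefSeq promoter windows (GRCm38.p6, from 250 bases before to 50 bases after each start) matched 6 of the 8 members by symbol: Hmgcs1, Idi1, Lss, Cyp51, Srebf2 and Insig1. The CCAAT box, the letters bound by NF-Y, was searched on both strands (CCAAT or ATTGG) and occurred upstream of the start in 6 of 6, against 37.4% of 32851 windows of 300 bases that held it anywhere. The 6 include Srebf2 and Insig1, which varied less closely with the enzymes, as given below. The sterol element TCACNCCAC, searched on both strands, occurred in the Hmgcs1 window alone, where 1.24% of all windows held it. A match is a description of letters, not a measured binding site. Only these exact letters were searched, and Fdps and Sqle had no window, so a missing match does not show that a site is absent. The stretch around the CCAAT box nearest each start on its upstream side is printed from 5′ to 3′ on the strand of the gene, with the CCAAT box or its reverse complement in capitals and, for Hmgcs1, the sterol element in capitals as well.
Hmgcs1 (chr13:119690204-119690340, plus strand): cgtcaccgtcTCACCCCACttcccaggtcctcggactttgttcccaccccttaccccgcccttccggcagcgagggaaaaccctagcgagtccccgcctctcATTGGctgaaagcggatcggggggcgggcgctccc
Idi1 (chr13:8885544-8885605, plus strand): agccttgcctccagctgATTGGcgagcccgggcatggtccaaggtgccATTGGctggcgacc
Lss (chr10:76531495-76531574, plus strand): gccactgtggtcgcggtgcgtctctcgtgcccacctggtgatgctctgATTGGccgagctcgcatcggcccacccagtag
Cyp51 (chr5:4104698-4104774, minus strand): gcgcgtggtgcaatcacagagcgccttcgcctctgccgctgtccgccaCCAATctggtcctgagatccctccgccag
Srebf2 (chr15:82147086-82147165, plus strand): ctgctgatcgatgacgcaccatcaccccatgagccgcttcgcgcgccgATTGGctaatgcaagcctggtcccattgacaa
Insig1 (chr5:28071162-28071227, plus strand): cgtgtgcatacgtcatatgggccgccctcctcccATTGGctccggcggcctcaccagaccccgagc
With the base before the start as -1, the box began at -14 in Idi1 (with another copy at -45), -29 in Cyp51, -45 in Hmgcs1 (with others at -237, -176 and, downstream, 11), -62 in Lss, -135 in Srebf2 and -216 in Insig1. In Hmgcs1 the sterol element began at -137.

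Several facts of the whole series bear on these genes. Signals are log2 values after quantile normalization, and no member's chosen probe set lay on the floor of the scale on any array. Myd88 itself read 8.23 to 8.51 in untreated WT and 7.53 to 7.81 in untreated KO mice, without overlap, and 8.26 to 8.61 in treated WT against 7.50 to 8.31 in treated KO mice, with overlap. Whether the Myd88 probes lie in the deleted part is not given in the sources used here. Markers of the labelled tissue were present: the mean of 8 absorptive colonocyte genes was 10.8 to 12.2 and that of 7 goblet cell genes 11.9 to 12.4 over the 32 arrays, with no gene of either list on the floor throughout a group. Some arrays also carried squamous epithelium (list mean up to 11.7, in a treated WT mouse) or skeletal muscle (up to 10.3, also treated WT). The array of treated KO replicate 3 stood apart for the enzymes, as given below, and results that turn on it are given with and without it.

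None of the 8 genes passed the threshold in any of the 5 comparisons (limma, Benjamini-Hochberg adjusted p under 0.05 over 18193 genes). For treatment in KO mice, 0 of 8 passed where 18.7% of all genes did. For treatment in WT mice, it was 0 of 8 against 1.84%. For genotype in treated mice, 0 of 8 stood against 12.8%, and for genotype in untreated mice 0 of 8 against 0.115%. For the interaction of genotype and treatment, 0 of 8 stood against 0.0550%. At an unadjusted limma p under 0.05 the counts were 5, 3, 2, 1 and 0 of 8 in the same order, against 31.2%, 14.9%, 26.0%, 7.17% and 11.7% of all genes. Least squares without moderation also called 0 of 8 in each comparison. Limma with array weights called 2 of 8, Hmgcs1 and Lss, for treatment in WT mice (8.02% of all genes). Other alternatives, given below, called up to 4 of 8 for treatment in KO mice. The lowest adjusted p of any member was 0.0636, for Cyp51 under treatment in KO mice.

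The direction of the enzymes was mostly one way. All 6 enzymes had a higher mean in treated than in untreated mice of both genotypes, with a median log2 difference of 0.32 in WT and 0.32 in KO mice, while 47.7% and 48.6% of all genes were higher and the median of all genes was 0.00. This held on the deposited and on the median-centred values too, but Idi1 in KO mice stood at 0.00 and was below 0 in 11 of 51 alternative fits. Within groups the enzymes correlated with each other at 0.65 to 0.92, so their 6 signs are not separate observations. Over the 8 genes the medians were 0.28 and 0.23. Srebf2 and Insig1, on their chosen probe sets, were below 0 in KO mice. The 95% confidence intervals of the enzymes' treatment differences ran from -0.24 to 0.92 in WT and from -0.36 to 0.88 in KO mice, so that changes of up to 1.89-fold in WT and 1.84-fold in KO mice lie inside them. Both treatment comparisons use different mice and share none. Other genes shifted with treatment as well: the mean of 11 mitotic genes went from 7.60 to 6.79 in WT and from 7.43 to 6.37 in KO mice, and the squamous list mean from 5.36 to 7.57 in WT and from 5.50 to 5.92 in KO mice. The macrophage and monocyte list mean went from 7.97 to 8.40 in WT and from 7.98 to 8.37 in KO mice. That of the epithelium list went from 11.38 to 11.42 in WT and from 11.37 to 11.65 in KO mice. With the mitotic list as a covariate, all 6 enzymes were higher in treated mice, with medians of 0.37 in WT and 0.42 in KO mice, and none was called. With the squamous and skeletal muscle lists as covariates, the medians were 0.43 and 0.34, and 2 were called in KO mice (20.0% of all genes were). The mitotic and skeletal muscle lists hardly tracked the members within groups (correlations of 0.11 and -0.037). With the 3'/5' signal difference of control probe sets as a covariate, Idi1 stood at -0.020 in WT and -0.12 in KO mice. Medians over the enzymes were not computed for other covariates. Among the alternatives other than leaving out 1 array, WT differences were 0.19 to 0.43 for Hmgcs1 and 0.15 to 0.43 for Sqle. Fdps was at 0.21 to 0.57, Lss at 0.19 to 0.70 and Cyp51 at 0.082 to 0.41. In KO mice Hmgcs1 was at 0.13 to 0.32 and Sqle at 0.25 to 0.51. Fdps was there at 0.046 to 0.36, Lss at 0.21 to 0.60 and Cyp51 at 0.28 to 0.58. The part of these shifts in the enzymes' differences was not tested.

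**Figure D1:**
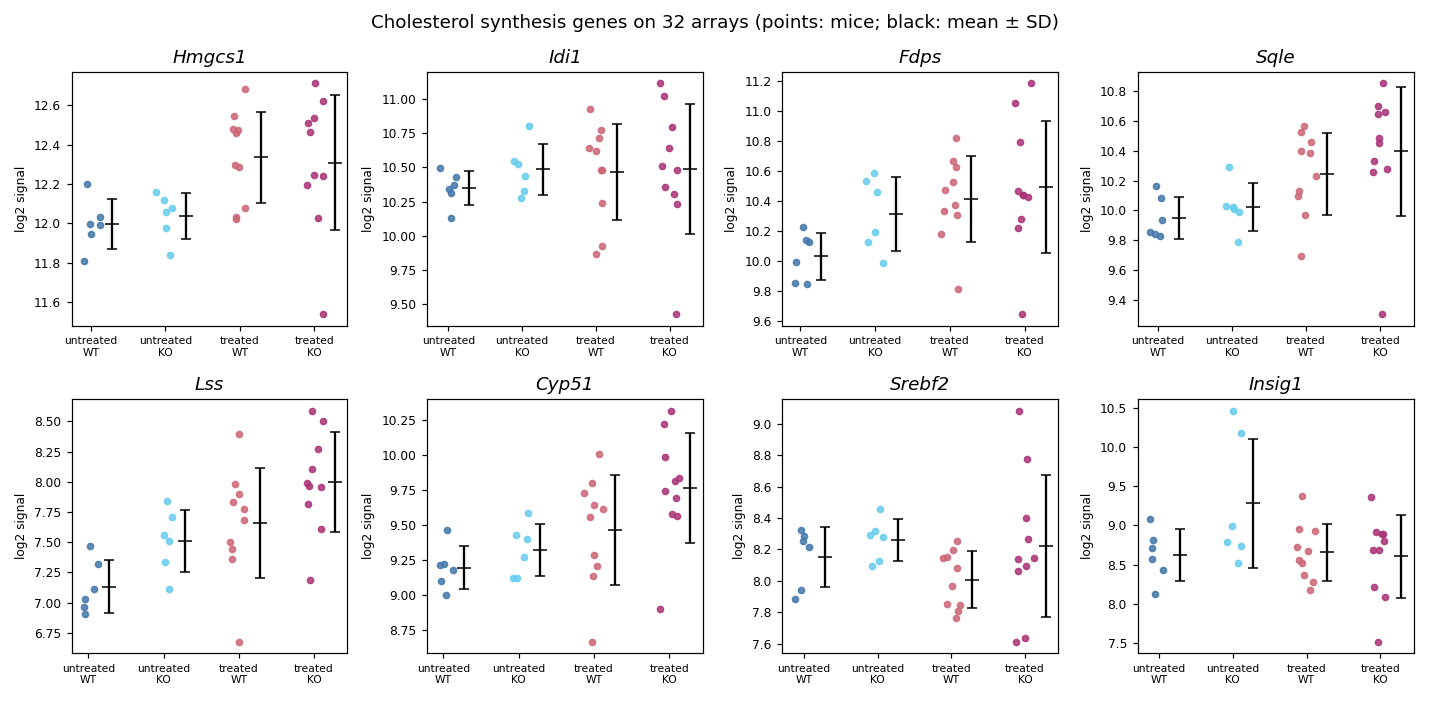
Log2 signal (vertical axes, quantile-normalized) of the 8 genes in each mouse, by group; points are mice (6, 6, 10 and 10) and black bars the mean ± SD. The treated groups of the 6 enzymes are wider than the untreated ones, and 1 treated KO mouse lies lowest for all 6 enzymes.

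Hmgcs1, which makes HMG-CoA, ranged from 11.81 to 12.20 (median 12.00) in untreated WT and from 12.02 to 12.68 (median 12.38) in treated WT mice. In KO mice it ranged from 11.84 to 12.16 (median 12.07) untreated and from 11.54 to 12.71 (median 12.36) treated. The groups overlapped, although 7 of 10 treated WT and 8 of 10 treated KO mice lay above every untreated mouse of their genotype. The treatment difference was 0.34 ± 0.13 (SE; adjusted p = 0.174, limma) in WT and 0.27 ± 0.13 (adjusted p = 0.136) in KO mice. The genotype difference was 0.042 ± 0.14 in untreated and -0.027 ± 0.11 in treated mice.

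Idi1, the isomerase of the C5 isoprenoid units, had wide treated groups. It ran from 10.13 to 10.50 (median 10.36) in untreated WT and from 9.87 to 10.93 (median 10.55) in treated WT mice. In KO mice it ran from 10.28 to 10.80 (median 10.48) untreated and from 9.42 to 11.12 (median 10.50) treated. Treated mice thus lay on both sides of the untreated range. The treatment difference was 0.12 ± 0.18 (adjusted p = 0.837) in WT and 0.00 ± 0.18 (adjusted p = 1) in KO mice, with a 95% interval of -0.36 to 0.37 in the latter.

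Fdps, which builds farnesyl diphosphate, was at 9.85 to 10.23 (median 10.06) in untreated WT and 9.82 to 10.82 (median 10.43) in treated WT mice. In KO mice it was at 9.99 to 10.59 (median 10.33) untreated and 9.65 to 11.18 (median 10.44) treated. In WT mice 8 of 10 treated animals exceeded all untreated ones, and in KO mice 3 of 10 did. The differences were 0.38 ± 0.16 (adjusted p = 0.257) and 0.18 ± 0.16 (adjusted p = 0.500). The untreated KO mean was 0.28 ± 0.18 above the untreated WT mean (adjusted p = 0.800), with overlapping values.

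Sqle, the epoxidase that oxidises squalene, read 9.83 to 10.16 (median 9.90) in untreated WT and 9.70 to 10.57 (median 10.31) in treated WT mice. Among KO mice the range was 9.79 to 10.29 (median 10.02) untreated and 9.31 to 10.85 (median 10.47) treated. Treated and untreated values overlapped, and 6 of 10 WT and 7 of 10 KO treated mice were above every untreated mouse of their genotype. Treatment differences were 0.29 ± 0.15 (adjusted p = 0.382) in WT and 0.37 ± 0.15 (adjusted p = 0.0916) in KO mice.

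Lss, which closes the sterol rings, showed the largest treatment difference of the 6 enzymes in both genotypes on its chosen probe set, while its other probe sets differed, as given below. Its range was 6.91 to 7.47 (median 7.07) in untreated WT and 6.68 to 8.39 (median 7.73) in treated WT mice. KO mice ranged from 7.11 to 7.84 (median 7.53) untreated and from 7.19 to 8.59 (median 7.98) treated. From lowest to highest, the means lay in the order untreated WT, untreated KO, treated WT, treated KO, but neighbouring groups in that order overlapped. The treatment difference was 0.52 ± 0.19 (adjusted p = 0.170) in WT and 0.49 ± 0.19 (adjusted p = 0.0724) in KO mice. Genotype differed by 0.38 ± 0.21 (adjusted p = 0.771) in untreated and 0.34 ± 0.17 (adjusted p = 0.184) in treated mice.

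Cyp51, the demethylase after lanosterol, was between 9.00 and 9.46 (median 9.20) in untreated WT and between 8.67 and 10.00 (median 9.59) in treated WT mice. In KO mice it was between 9.12 and 9.59 (median 9.34) untreated and between 8.90 and 10.32 (median 9.78) treated. Of the treated mice, 6 of 10 WT and 7 of 10 KO animals lay above the untreated mice of their genotype. The KO treatment difference was 0.44 ± 0.17 (adjusted p = 0.0636) and the WT one 0.27 ± 0.17 (adjusted p = 0.482). Treated KO mice averaged 0.30 ± 0.15 above treated WT mice (adjusted p = 0.187).

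Among the regulators, Srebf2 on its chosen probe set had treated means below the untreated ones. It read 7.89 to 8.33 (median 8.23) in untreated WT, 8.09 to 8.46 (median 8.29) in untreated KO, 7.76 to 8.25 (median 8.03) in treated WT and 7.61 to 9.08 (median 8.14) in treated KO mice. The treated KO group enclosed the other 3 groups. Treatment differences were -0.14 ± 0.15 (adjusted p = 0.730) in WT and -0.040 ± 0.15 (adjusted p = 0.918) in KO mice, and the genotype difference in treated mice was 0.21 ± 0.13 (adjusted p = 0.311).

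Insig1, the sterol-dependent brake on SREBP-2 and itself an SREBP target, had a high untreated KO mean that rested on 2 mice. Its range was 8.12 to 9.08 (median 8.64) in untreated WT and 8.52 to 10.47 (median 8.89) in untreated KO mice. Treated WT mice were at 8.17 to 9.37 (median 8.62) and treated KO mice at 7.52 to 9.37 (median 8.75). Untreated KO replicates 2 (10.47) and 5 (10.18) stood above all 30 other mice, and the other untreated KO mice were at 8.99 or below. With all mice, the KO treatment difference was -0.68 ± 0.26 (adjusted p = 0.0726), the untreated genotype difference 0.66 ± 0.30 (adjusted p = 0.661) and the interaction -0.71 ± 0.37 (adjusted p = 0.463). Without those 2 mice, a setting chosen after their values were seen, these became -0.16 ± 0.24, 0.14 ± 0.26 and -0.19 ± 0.31.

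**Figure D2:**
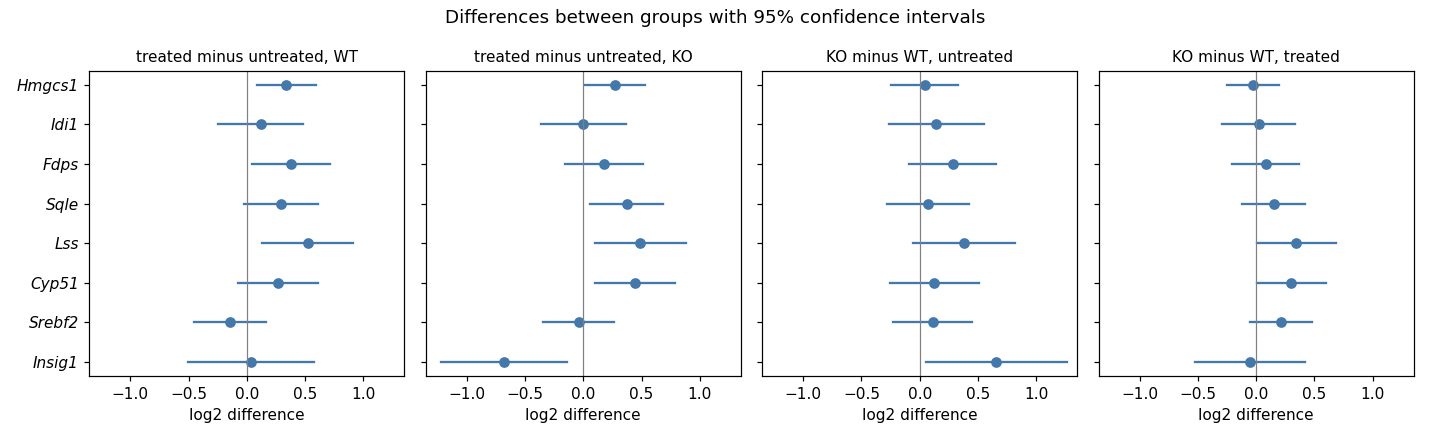
Log2 differences of the 8 genes (points) with 95% confidence intervals (lines) for treatment in WT and in KO mice and for genotype in untreated and in treated mice. The 6 enzymes sit at or above 0 in both treatment panels (Idi1 in KO mice at 0.00, with either sign among the alternative fits), and Insig1 lies at -0.68 in KO mice.

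The count of calls in KO mice turned on single arrays. Treated KO replicate 3 was the lowest of its group for all 6 enzymes, with a mean deviation of -0.91 from its group. Without that array, the KO treatment comparison called 4 of 8 genes where 17.2% of all genes were called. As the lowest mouse was left out, the treated KO means of the enzymes could only rise. The 4 were Sqle (0.49, adjusted p = 0.00294), Cyp51 (0.54, adjusted p = 0.0119), Hmgcs1 (0.36, adjusted p = 0.0150) and Lss (0.58, adjusted p = 0.0245). Cyp51 was then also called between treated KO and treated WT mice (0.40, adjusted p = 0.0426), where 12.6% of all genes were. Without treated WT replicate 2, Cyp51 and Lss were called in the KO treatment comparison (18.4% of all genes), although that array enters it only through the shared estimate of spread. Insig1 was called there without treated KO replicate 6 (-0.76, adjusted p = 0.0405, 19.4% of all genes) or without untreated KO replicate 6 (-0.83, adjusted p = 0.0354, 16.7% of all genes). These mice held its highest treated KO and its lowest untreated KO value, so leaving out either could only widen the difference.

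The spread between mice was wider after treatment. The SD of the 6 enzymes over treated mice was 1.81 to 2.82 times that over untreated mice in WT, and 1.59 to 2.97 times in KO mice. The median gene among those above the 40th percentile of signal had ratios of 1.36 and 1.54. Without treated KO replicate 3, the KO ratios of the enzymes were 1.22 to 1.95, around the median gene's 1.50. The WT ratios include treated WT replicate 2, where all 6 enzymes lay at -0.98 to -0.26 from their group means. They were not computed without that array. Srebf2 had a ratio of 0.96 in WT and 3.38 in KO mice, and Insig1 1.10 and 0.64.

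The enzymes moved together from mouse to mouse within groups. When each gene was centred on its group mean, the 15 pairs of the 6 enzymes had Pearson correlations of 0.65 to 0.92 over the 32 arrays (median 0.83), and Spearman correlations of 0.51 to 0.87. Cyp51 and Lss were the closest pair, and Hmgcs1 and Fdps the loosest. The 7 pairs with Insig1 had Pearson correlations of 0.24 to 0.56, and the 7 with Srebf2 0.16 to 0.39. The arrays share a platform and a normalization, and pairs share genes, so these correlations describe the 32 arrays and carry no p.

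**Figure D3:**
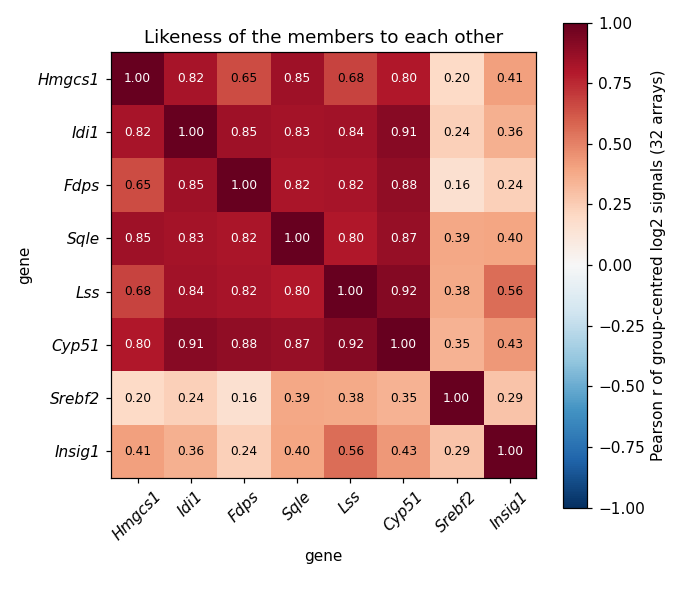
Pearson correlation of group-centred log2 signals over the 32 arrays for each pair of the 8 genes (colour scale from -1 to 1, value in each cell). The block of 6 enzymes lies between 0.65 and 0.92, and the rows of Srebf2 and Insig1 are paler.

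Without the 2 arrays farthest from the median of the members' mean (treated KO replicate 3 and treated WT replicate 2), the enzyme pairs stayed at 0.43 to 0.86 (median 0.72). The pairs with Insig1 were then at 0.11 to 0.55, and those with Srebf2 at -0.17 to 0.21. The enzyme pairs had medians of 0.86 in the 16 WT and 0.86 in the 16 KO arrays. Within single groups the medians were 0.88 in treated WT, 0.88 in treated KO, 0.65 in untreated WT and 0.58 in untreated KO mice, where 13 of 15 pairs were above 0. On the deposited values without further normalization, the range was 0.71 to 0.93.

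The shared movement can be read mouse by mouse. On 15 of 32 arrays all 6 enzymes lay on the same side of their group means: 6 of 10 treated WT, 5 of 10 treated KO, 3 of 6 untreated WT and 1 of 6 untreated KO arrays. Treated WT replicate 9 had all 6 above, by 0.32 to 0.74, and treated KO replicate 8 by 0.30 to 0.63. Treated WT replicate 2 had all 6 below, at -0.98 to -0.26, and treated KO replicate 3 at -1.09 to -0.77. High and low mice occurred in both treated groups.

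**Figure D4:**
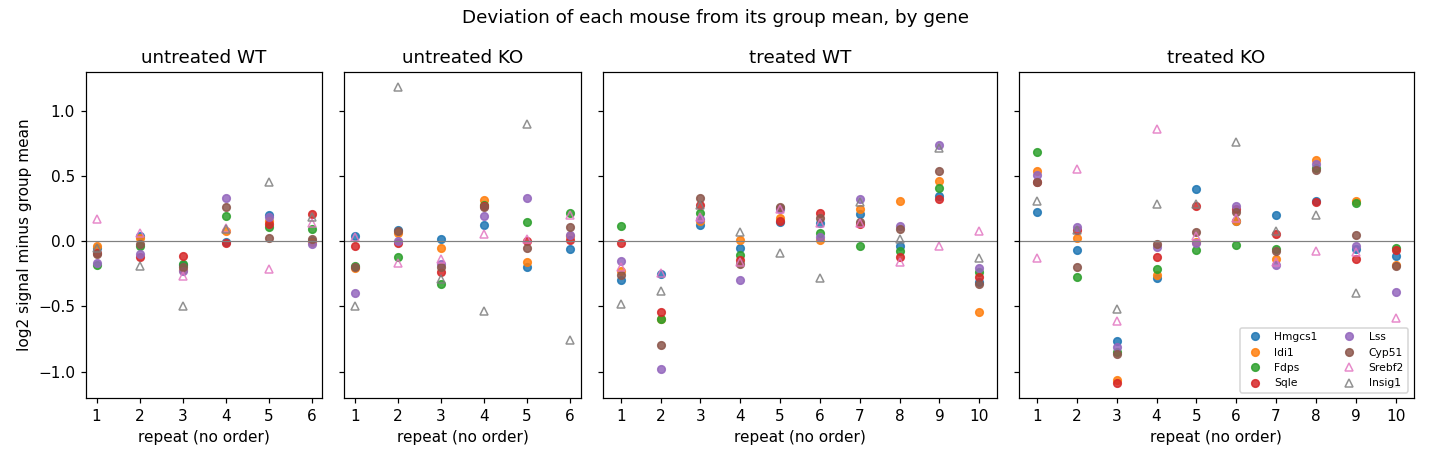
Log2 signal minus the group mean (vertical axis) for each mouse, in 4 panels by group; filled circles are the 6 enzymes and open triangles Srebf2 and Insig1, and the repeat numbers have no order. The circles cluster within a mouse, while the triangles often stand away from them, as in untreated KO replicates 2 and 5 for Insig1.

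Other genes were ranked by the correlation of their group-centred signal with the mean of the 8 members, over the same 32 arrays. Of 18185 genes, Mvd (0.90), which makes isopentenyl diphosphate, came first, followed by the sterol dehydrogenase Nsdhl (0.86) and the acetoacetyl-CoA synthetase Aacs (0.84). The rest of the closest 10 were the sterol methyl oxidase Msmo1 (0.80), Cisd1 (0.80), Pgp (0.79), Gfm2 (0.76), mevalonate kinase Mvk (0.75), Fgfbp1 (0.75) and Pcyt2 (0.75), an enzyme of phosphatidylethanolamine synthesis. Thus 4 of the 10 were other cholesterol synthesis enzymes. At the opposite end were Tmem176b (-0.79), Abca9 (-0.78) and Abca1 (-0.76), the last of which exports cholesterol from cells.

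The list of other cholesterol synthesis enzymes, 12 of 15 measured, tracked the members as a whole. All 12 correlated above 0 with the members' mean (median 0.69, range 0.21 to 0.90), and 8 of them were among the closest 100 genes. A correlation above 0.5 was seen in 75% of this list and in 2.90% of all genes. The list of LXR targets and sterol efflux and storage, 9 of 12 measured, had a median of -0.33, and SREBP processing and sterol sensing, 9 of 10 measured, a median of 0.039. SREBP-1 and fatty acid synthesis (13 of 13 measured) stood at 0.14, sterol uptake and other SREBP-2 targets (8 of 10) at 0.079 and the branches of the mevalonate pathway (7 of 8) at 0.34. The uptake list includes Mylip (-0.60), which is induced by LXR rather than counted among the LXR targets here. The median of all genes was 0.021. Further settings were chosen after seeing the data. Without the 2 farthest arrays, all 12 other enzymes were still above 0, with a median of 0.49 and 6 of 12 above 0.5 against 1.13% of all genes. The branches then stood at 0.11 and fatty acid synthesis at -0.21. LXR targets and sterol efflux and storage stood at -0.23, with 4 of 9 genes above 0. SREBP processing stood at -0.0069 and sterol uptake at 0.057. With median centring, the median of all genes was 0.19, that of the other enzymes 0.78, of the branches 0.57 and of SREBP processing 0.24, while 16.3% of all genes exceeded 0.5.

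**Figure D5:**
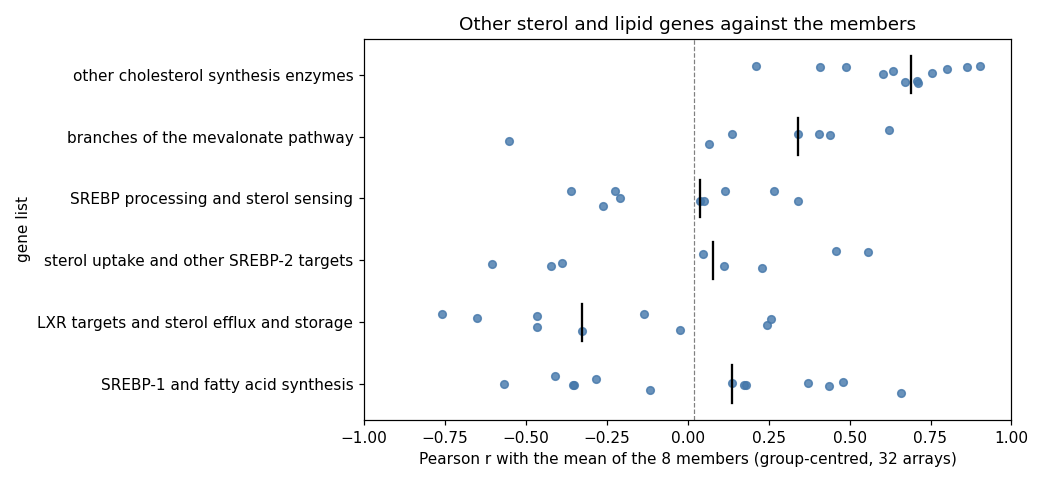
Pearson correlation of each gene of 6 lists with the mean of the 8 members (group-centred signals, 32 arrays); points are genes, black bars list medians and the dashed line the median of all genes. The other cholesterol synthesis enzymes lie from 0.21 to 0.90, with the highest median of the 6 lists (0.69).

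In the group comparisons, the other genes of the pathway were called at shares near those of all genes. Of 58 measured genes on the 6 lists, 2 rose and 8 fell between treated KO and treated WT mice, 3 rose and 9 fell with treatment in KO mice, and 1 rose with treatment in WT mice (limma, adjusted p under 0.05). These are 17.2%, 20.7% and 1.72% of the 58. None passed between untreated genotypes or in the interaction. Without treated KO replicate 3, 4 rose and 8 fell in the first comparison, 4 rose and 9 fell in the second and 2 rose in the third. Dhdds and Msmo1 then rose in the first, Dhdds and Sc5d in the second and Apoe in the third, beyond the genes named below, while Acss2 in the first and Npc2 in the second were no longer called and Mbtps1 fell in the first. Across all genes, 6.24% rose and 6.57% fell in the first of these comparisons, 8.70% and 10.0% in the second and 0.605% rose in the third.

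Among the 12 other cholesterol enzymes, phosphomevalonate kinase Pmvk was higher in treated KO than in treated WT mice (0.44 ± 0.11, adjusted p = 0.00704). Msmo1 rose with treatment in KO mice (0.41 ± 0.14, adjusted p = 0.0447), from 10.92 to 11.27 (median 11.07) untreated to 10.77 to 11.82 (median 11.57) treated, and this call was lost in 13 of 32 fits that left out 1 array. Lbr, a sterol reductase that is also the lamin B receptor, fell in both comparisons (-0.45 ± 0.099, adjusted p = 0.00353, against treated WT, and -0.58 ± 0.11, adjusted p = 0.000698, against untreated KO mice). The brightest gene of the list not called with treatment in KO mice was squalene synthase Fdft1, at 0.31 ± 0.17 (adjusted p = 0.219).

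In the mevalonate branches, the prenyltransferase subunits Fnta (-0.19 and -0.23) and Pggt1b (-0.33 and -0.39) fell in treated KO mice against treated WT and against untreated KO mice. These 2 comparisons share the treated KO mice. Of the sterol sensing genes, Erlin2 rose with treatment in KO mice (0.21 ± 0.064, adjusted p = 0.0185), while Erlin1, the brightest not called, stood at 0.21 ± 0.085 (adjusted p = 0.0899). Of the uptake genes, the lysosomal cholesterol exporter Npc1 was higher in treated KO than treated WT mice (0.34 ± 0.10, adjusted p = 0.0300). Its partner Npc2 rose with treatment in KO mice (0.18 ± 0.059, adjusted p = 0.0322), and Mylip, a ubiquitin ligase gene induced by LXR, fell in both (-0.47 and -0.50). The calls of Npc1, Npc2 and Mylip were each lost without some single arrays (5 to 7 of 32). Nr1h3, which encodes LXR alpha, fell with treatment in KO mice (-0.34 ± 0.095, adjusted p = 0.0106).

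Of the 13 fatty acid synthesis genes, 4 fell in treated KO mice against treated WT mice and 4 against untreated KO mice, and none rose. Among all genes 6.57% and 10.0% fell in these comparisons, which share the treated KO mice. Acly, which makes cytosolic acetyl-CoA, fell by 0.60 against treated WT and by 0.55 against untreated KO mice. Acss2, the acetyl-CoA synthetase, was at 10.11 to 10.37 (median 10.27) in untreated KO, 8.30 to 10.28 (median 9.11) in treated KO and 9.54 to 10.05 (median 9.86) in treated WT mice. It fell by 0.97 ± 0.20 (adjusted p = 0.00119) with treatment in KO mice and by 0.57 ± 0.18 (adjusted p = 0.0299) against treated WT mice, a call lost in 7 of 32 fits that left out 1 array. Gpam fell in both comparisons (-0.55 and -0.69), Scd2 in the first (-0.41) and Fads2 in the second (-0.57). In WT mice, Acacb rose by 1.73 ± 0.42 with treatment (adjusted p = 0.0265), from a low level with some untreated mice on the floor, and the call was lost without any 1 of 5 untreated WT arrays.

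Probe sets of the same gene did not always give the same difference. Of the 8 genes, 6 had several probe sets. For Srebf2, the dimmer probe set 1426744_at read 7.68 to 8.10 (median 7.87) in treated WT and 7.37 to 9.11 (median 8.34) in treated KO mice. In the fit of all probe sets it was 0.50 ± 0.13 higher in treated KO mice (adjusted p = 0.0115), whereas the chosen 1452174_at gave 0.21. With treatment in KO mice it stood at 0.34 ± 0.15 (adjusted p = 0.122), in the direction of the enzymes, where the chosen one stood at -0.040. For Lss, the chosen 1420013_s_at can match more than 1 transcript by its suffix, and 1426913_at gave the opposite sign in KO mice (-0.47 ± 0.27 with treatment and -0.52 ± 0.23 against treated WT mice). With treatment in WT mice 1426913_at stood at 0.083 ± 0.27. The dim 1420014_at, on the floor on 5 arrays, stood with treatment at -0.024 ± 0.23 in WT and 0.62 ± 0.23 in KO mice. The chosen Hmgcs1 probe set 1433445_x_at, of a kind that may cross-hybridise, correlated at 0.89 to 0.96 with 1433443_a_at, 1433444_at and 1433446_at within groups. With treatment in KO mice the chosen one stood at 0.27 ± 0.13 and 1433444_at at 0.27 ± 0.12. There 1433443_a_at stood at 0.098 ± 0.14 and 1433446_at at 0.14 ± 0.16. With treatment in WT mice these 3 and the chosen one gave 0.28 to 0.38. The much dimmer 1441536_at gave -0.66 ± 0.23 between treated genotypes (adjusted p = 0.0693). For Cyp51, the chosen 1450646_at and the dimmer 1422533_at correlated at 0.88 within groups but gave unlike differences. With treatment in KO mice they stood at 0.44 ± 0.17 and 0.073 ± 0.20 (adjusted p = 0.0715 and 0.882 in the fit of all probe sets), and between treated genotypes at 0.30 ± 0.15 and -0.13 ± 0.17. With treatment in WT mice both gave 0.27. Cyp51's 1422534_at correlated at 0.79 with the chosen one, and Idi1's pair at 0.91. The other probe set of Fdps lay on the floor on 30 of 32 arrays.

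Markers of cell types moved with the members within groups. The mean of 10 macrophage and monocyte genes correlated at -0.59 with the members' mean over the 32 arrays (-0.47 without the 2 farthest). It ranged from 7.75 to 8.29 in untreated WT, 7.79 to 8.24 in untreated KO, 8.10 to 8.80 in treated WT and 7.47 to 9.42 in treated KO mice. The mean of 8 epithelium genes correlated at 0.49, with ranges of 11.27 to 11.43, 11.27 to 11.50, 11.09 to 11.62 and 11.41 to 11.86 in the same order. No gene of these 2 lists was on the floor throughout a group. The squamous list (11 of 12 measured) correlated at -0.45, the adipocyte list (6 of 8) at -0.45 and the neutrophil list (4 of 5) at -0.44. Without the 2 farthest arrays these were -0.29, -0.47 and -0.28, and the epithelium list stood at 0.42. B and plasma cell genes (6 of 7 measured) correlated at -0.34 and sebaceous gland genes (6 of 8) at 0.32. Goblet cell (0.23), absorptive colonocyte (0.20), mitotic (0.11), smooth muscle (-0.041) and skeletal muscle (-0.037) lists were nearer 0, and without the 2 farthest arrays the mitotic list stood at -0.024 and the skeletal muscle list at -0.16. The correlations are descriptions over arrays that share a normalization. After the epithelium, macrophage and squamous list means were taken out, the enzyme pairs correlated at 0.54 to 0.90. Against the members' mean, Tmem176b then stood at -0.70, Abca9 at -0.67 and Abca1 at -0.52. The adipocyte and neutrophil list means were not taken out. The part of cell composition in the shared movement of the enzymes was not tested.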

How the data were processed

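The authors deposited 1 log2 signal for each of 45101 probe sets (64 controls) on each of 32 arrays, scaled beforehand: the 2% trimmed mean of the linear signals was 150.9 to 151.3 on every array, and signals under 10 had been raised to 10. The summarising software and any batch are not given in the sources used here. Genes were named from GEO's platform annotation (34945 probe sets with 1 symbol, 932 with several and 9211 with none), and none was named from a probe set with several. Arrays were quantile-normalized again, and 1 probe set per gene, the one with the highest mean, entered a limma model (version 3.58.1, R 4.3.3) of 4 group means with 28 residual degrees of freedom. Tests were two-sided, with Benjamini-Hochberg adjustment over 18193 genes, and the code was tested on simulated data. For arrays, their number limits the precision.

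The members, gene lists, markers and tests were chosen with earlier results of these data known. Named genes were the 8 members and their probe sets, the called genes of each pathway list with its brightest gene not called, and the 10 closest and 3 least like genes. Of 68 listed pathway genes, 58 were analysed here. Alternatives were other normalizations, filters, probe set rules, priors, array weights, covariates and each array left out. Repeat numbers were checked as pairs: of 28 pairs of the same number, 4 had correlated deviations above 0.1, so they were not used as a block.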

Additional observations from a re-analysis of the deposited data

Results flagged for a closer look

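Treated KO replicate 3 lay far below the other 9 treated KO mice for 3 members by Dixon's criterion, among 32 combinations of gene and group tested, and chance alone marks about 1 in 20. Sqle read 9.31 there, where the next mouse was at 10.26. Idi1 read 9.42, with the next at 10.23. Cyp51 read 8.90, with the next at 9.57. The same mouse was also lowest for Hmgcs1 (11.54), Fdps (9.65), Lss (7.19) and Srebf2 (7.61), which did not meet the criterion.

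On the same array the macrophage and monocyte list mean (9.42) and the squamous epithelium list mean (8.24) were the highest of the treated KO mice, and the epithelium (11.4), absorptive colonocyte (11.6) and sebaceous gland (6.31) list means the lowest. Their part in the low enzyme signals was not tested.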

How the results depend on the processing

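Of 2032 values of the 8 members under 51 alternatives, 1940 kept their direction and their side of the threshold, 25 newly passed it and 67 changed sign, the largest of those at 0.25 in size. No member passed in the reported fit, so none could drop below the threshold. Of the 51 alternatives, 32 left out 1 array, which cannot change a difference between groups without that array. A kept direction did not mean a kept size: Srebf2 with treatment in KO mice went from -0.040 down to -0.48 among the alternatives. The count of members called was 0 in the reported fit of every comparison, and 0 under all alternatives for genotype in untreated mice and for the interaction. With 1 array left out, it was 0 to 1 for genotype in treated mice and 0 to 4 for treatment in KO mice. For treatment in WT mice it was 2 with array weights (8.02% of all genes called) and 1 without treated WT replicates 1 and 2 (1.80%). For treatment in KO mice it was 1 with median centring (15.5%), 1 on the deposited values (18.6%), 3 among genes above the 40th percentile (31.0%), 2 with squamous and skeletal muscle lists as covariates (20.0%), 3 with the adipocyte list (18.1%), 1 with Xist (19.2%) and 2 without treated WT replicates 1 and 2 (19.2%). The cause was not tested, except that fewer genes are tested above the percentile.

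Changes of sign concerned small differences. For genotype in treated mice, Hmgcs1 turned to 0.15 with median centring, 0.066 on the deposited values and 0.024 with array weights, and lay at -0.072 to 0.058 with 1 array left out. Idi1 turned to -0.040 with probe sets averaged, -0.053 with the squamous and skeletal muscle covariates, -0.046 with the 3'/5' covariate and -0.081 without treated WT replicates 1 and 2 (-0.047 to 0.14 with 1 array left out). Insig1 turned to 0.018 with median centring (-0.14 to 0.069 with 1 left out). With epithelium and macrophage covariates, chosen after seeing the data, Sqle was at -0.029, Idi1 at -0.010 and Srebf2 at -0.13. For genotype in untreated mice, the 3'/5' covariate gave -0.042 for Hmgcs1 and -0.022 for Sqle. For treatment in WT mice it gave -0.020 for Idi1 and -0.091 for Insig1 (-0.067 to 0.12 with 1 left out), and the squamous and skeletal muscle covariates gave 0.054 for Srebf2. For treatment in KO mice, Idi1 was at -0.12 with the 3'/5' covariate and -0.023 without untreated KO replicates 2 and 5, chosen after seeing the data (-0.068 to 0.12 with 1 left out). Srebf2 was at 0.041 with median centring, 0.15 with probe sets averaged and 0.012 with the adipocyte covariate (-0.14 to 0.027 with 1 left out). For the interaction, median centring gave 0.023 for Hmgcs1 (-0.11 to 0.016 with 1 left out), 0.019 for Idi1 and 0.051 for Lss. Lss was also at 0.018 with probe sets averaged, 0.0052 with array weights and 0.048 without untreated KO replicates 2 and 5 (-0.14 to 0.056 with 1 left out). The squamous and skeletal muscle covariates gave -0.030 for Sqle and -0.057 for Srebf2, and the epithelium and macrophage covariates -0.11 and -0.25. The cause was not tested.

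With the repeat number as a replicate block, 0 of 8 members were called in each comparison, and for treatment in KO mice Idi1 turned to -0.089 and Srebf2 to 0.033. The numbers did not pair the samples (correlations of -0.21 to 0.44 over 28 pairs). Over all genes, counts of calls ranged among all alternatives from 299 to 3758 (reported fit 2331) for genotype in treated mice, 13 to 43 (21) in untreated mice, 23 to 1459 (335) for treatment in WT, 53 to 5508 (3406) in KO mice and 0 to 257 (10) for the interaction. For the 58 pathway genes they ranged from 3 to 18 (10) for genotype in treated mice, 0 to 7 (1) for treatment in WT mice and 0 to 16 (12) in KO mice.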

Other observations

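The genes closest to the regulators from mouse to mouse were also ranked. This search was added after the correlations among the members had been seen, and its values describe the 32 arrays with group means removed. Insig1 was closest to Prr15 (0.85), Nipsnap2 (0.83), Rbm47 (0.83), the tight-junction gene Cgn (0.83) and Pdp2 (0.82). Srebf2 was closest to Csnk1g2 (0.82), Slc35c1 (0.82), Wdfy1 (0.82), the kinase gene Akt1 (0.80) and Bspry (0.80). None of the closest 10 genes of either regulator was on the 6 pathway lists or a member, while 4 of the closest 10 of the members' mean were. Farther down, Insig1 still correlated with members, at up to 0.56 with Lss.

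Each member was also set against the mean of the other 7. Cyp51 (0.93) and Lss (0.91) stood closest to it, followed by Sqle (0.87), Idi1 (0.85), Hmgcs1 (0.78) and Fdps (0.77). Insig1 (0.45) and Srebf2 (0.34) were farther away, and Srebf2 was at 0.080 without the 2 farthest arrays.

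Arrays with a high and with a low signal of Xist, which is transcribed in female cells, were equal in number in each group (3 and 3, or 5 and 5). Within each group the members' mean was lower on the arrays with high Xist, by group at -0.11, -0.072, -0.091 and -0.050 from the group mean in untreated WT, untreated KO, treated WT and treated KO mice. This difference was not tested.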
